A study of Mus musculus with 12 samples.

Results

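The genes examined here encode the nuclear subunits of respiratory complexes III, IV and V and the electron carrier cytochrome c. They were chosen by symbol: every gene whose symbol begins with Uqcr, Atp5 or Cox4 to Cox8, together with Cyc1 and Cycs, which gave 44 of the 25611 genes counted. RNA was sequenced from whole livers of male C57BL/6J mice aged 8 to 10 weeks, in 3 groups of 4 mice: a sham group with the abdomen opened only, a group subjected to cecal ligation puncture (CLP), which lets gut bacteria into the abdomen and causes sepsis, and a CLP group given dichloroacetate (DCA, an inhibitor of pyruvate dehydrogenase kinase) at 25 mg/kg. All livers were harvested 30 hr post-surgery, 6 hr after the injections made at 24 hr, and what the groups without DCA were injected with is not given in the sources used here. Each mouse is 1 library and 1 replicate, and between 24436513 and 44266819 reads were counted per mouse.

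In the inner mitochondrial membrane, complex III passes electrons from ubiquinol to cytochrome c, complex IV passes them from cytochrome c to oxygen, and both pump protons. Complex V, the ATP synthase, lets the protons flow back through its c ring and uses that flow to make ATP. Liver, a tissue rich in mitochondria, uses this ATP for gluconeogenesis and urea synthesis, and muscle replaces some of the complex IV subunits by isoforms of its own. A few core subunits of the complexes are encoded by the mitochondrial genome and were not analysed here.

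The 44 genes fell into 9 subunits of complex III, 11 of complex IV in the form liver uses, 15 of complex V, Cycs, 3 muscle isoforms of complex IV (Cox6a2, Cox7a1 and Cox8b), 4 isoforms of other tissues (Cox4i2, Cox6b2, Cox7b2 and Cox8c), and Atp5s, named for the synthase but not one of its subunits. The 11 of complex IV include Cox7a2l, a factor that joins complexes III and IV into supercomplexes. The low-count filter, which asks for about 10 reads in the mice of a group, was passed by 38 of the 44, among them all 35 liver-form subunits, Cycs, Atp5s and Cox7a1. The genes lie on 19 chromosomes, with 6 of them on chromosome 7, the most on any.

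Sequence upstream of the genes is shown because the subunits had lower mean levels together in septic mice while Cycs did not. Start-site windows of 300 bases (250 before to 50 after the start, RefSeq, GRCm38.p6, which shares its coordinates with mm10) were found for 34 of the 44 members and not for 10: Atp5a1, Cox4i1, Cox4i2, Cox6a2, Cox6c, Cox8c, Cyc1, Uqcrb, Uqcrc2 and Uqcrq. They were searched on both strands for 4 motifs of factors known to act at respiratory genes: GCGCA, any base and GCGC for NRF1, CCGGAAG for GABP and other ETS factors, AANATGGC for YY1, and AAGGTCA for the estrogen-related receptors. Of the 28 liver-form subunits with a window, 8 held the NRF1 letters (28.6%, against 4.6% of all 32851 windows and 9.48% of windows of genes past the filter), 10 the ETS letters (35.7%, against 8.86% and 16.6%), 5 the YY1 letters (17.9%, against 6.05% and 8.07%) and 4 the receptor letters (14.3%, against 4.72% and 3.54%). The NRF1 letters stood in 6 of 14 genes of complex V with a window, 1 of 9 of complex IV and 1 of 5 of complex III. Of the 28 genes, 9 held none of the first 3 motifs. A member with more than 1 window, as 3 had, counted once if any of its windows held the letters. The shares over all are of windows and not of genes, so that the measures are unlike. The 200 bases before the start are printed 5′ to 3′ on the strand of the gene, with motif letters in capitals, for Uqcr11 of complex III (chr10:80406822-80407021, minus strand), Cox7b, which passed the test (chrX:106015500-106015699, plus strand), Cox6a1, the liver partner of a muscle isoform (chr5:115348959-115349158, minus strand), Atp5c1, among the most lowered (chr2:10080433-10080632, minus strand, the second of its windows), Atp5g2 of the c ring (chr15:102671048-102671247, minus strand) and Cycs (chr6:50566570-50566769, minus strand).
Uqcr11: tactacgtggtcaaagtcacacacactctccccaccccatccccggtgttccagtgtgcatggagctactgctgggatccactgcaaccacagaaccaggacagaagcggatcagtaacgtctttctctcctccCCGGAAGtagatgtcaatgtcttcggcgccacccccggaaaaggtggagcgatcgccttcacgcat
Cox7b: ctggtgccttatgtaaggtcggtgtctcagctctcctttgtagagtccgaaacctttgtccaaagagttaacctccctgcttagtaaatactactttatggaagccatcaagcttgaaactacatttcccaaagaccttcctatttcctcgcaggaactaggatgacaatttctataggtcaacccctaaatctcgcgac
Cox6a1: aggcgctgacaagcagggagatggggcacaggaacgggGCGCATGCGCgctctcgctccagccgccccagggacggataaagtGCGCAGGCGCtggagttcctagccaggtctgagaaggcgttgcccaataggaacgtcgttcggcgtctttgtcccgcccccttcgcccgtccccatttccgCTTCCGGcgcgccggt
Atp5c1: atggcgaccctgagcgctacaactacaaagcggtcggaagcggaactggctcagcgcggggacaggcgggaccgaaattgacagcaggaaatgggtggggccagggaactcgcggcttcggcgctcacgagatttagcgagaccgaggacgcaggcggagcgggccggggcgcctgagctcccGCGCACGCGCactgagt
Atp5g2: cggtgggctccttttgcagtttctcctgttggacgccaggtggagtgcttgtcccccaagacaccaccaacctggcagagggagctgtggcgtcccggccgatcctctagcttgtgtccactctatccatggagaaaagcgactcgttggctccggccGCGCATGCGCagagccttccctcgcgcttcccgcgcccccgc
Cycs: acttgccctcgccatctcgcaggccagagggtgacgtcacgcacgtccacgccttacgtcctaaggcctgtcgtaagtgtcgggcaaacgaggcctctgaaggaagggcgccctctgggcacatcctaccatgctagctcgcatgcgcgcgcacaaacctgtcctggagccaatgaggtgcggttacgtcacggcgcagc
The capitals are the ETS letters in Uqcr11, NRF1 letters at 2 places and ETS letters read on the other strand in Cox6a1, and NRF1 letters in Atp5c1 and Atp5g2. The first window of Atp5c1, not printed, holds none of the searched letters. The NRF1 letters of Atp5g2 and the first of Cox6a1 match on both strands. No exact match to the searched letters stands in the stretches printed for Cox7b and Cycs. Cox7b has YY1 letters within the 50 bases after its start. Near matches were not counted. The Cycs stretch holds tcgcatgcgc, which differs from the NRF1 letters only in its first base, so the search does not show that Cycs lacks an NRF1 site. A match in these windows is a description of the letters and not of binding.

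Some libraries have to be described before the comparisons. The library of CLP replicate 3 held 131434 reads (3178 CPM, reads scaled to library size) on 16 skeletal muscle markers, all 16 of them detected, where the other 11 mice held 6.58 to 22.6 CPM. Among 7 heart markers it held 1984 reads on Myh7 and 364 on Myl2, both also made by slow skeletal muscle, and 2 on Myh6. CLP+DCA replicate 3 stood apart from the other mice given DCA: its summed hepatocyte markers were the lowest of the 12 mice (28270 CPM, against 54747 to 61823 in the other CLP+DCA mice) and its summed neutrophil markers the highest (55.9 CPM, against 6.32 to 14.4). Of its 2064 neutrophil marker reads, 654 were on S100a8 and 758 on S100a9. All 10 hepatocyte markers had reads in every mouse, though Ass1, a urea cycle enzyme, had 1 to 33 reads only. Their sum was 66600 to 86998 CPM in sham and 31597 to 47931 CPM in CLP, with no overlap, and Alb alone took 48.5% to 67.2% of it. Of the single markers, Alb, Apoc3, Ttr and Serpina1b did not overlap between these groups and the others did. The hepatocyte transcription factor Hnf4a stood at 671 to 765 CPM in sham, 687 to 803 CPM in CLP and 634 to 808 CPM in CLP+DCA, the last value in CLP+DCA replicate 3, so that it did not share the low level of the sum. The 8 neutrophil markers summed to 6.49 to 9.52 CPM in sham and 32.4 to 44.0 CPM in CLP. Of these, Ly6g did not follow the sum: it had 24 to 30 reads in sham, 6 to 29 in CLP and 10 in CLP+DCA replicate 3. The sums of the 7 macrophage and 6 endothelial markers overlapped between sham and CLP (144 to 247 against 227 to 304 CPM, and 92.6 to 119 against 111 to 139 CPM). In whole liver, fewer hepatocytes and less RNA of these genes per hepatocyte cannot be told apart, and the part of these cell types in the results was not tested. Results that rest on these mice are given with and without them.

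In sham mice the 35 liver-form genes took 0.648% to 0.718% of all reads counted. On a scale of CPM per kilobase of transcript, set by the median length of the coding transcripts of each gene, the highest levels were those of Atp5b, the catalytic β subunit of the F1 head (471 ± 23.0, SD, n = 4), the c ring gene Atp5g3 (443 ± 15.3) and Cox4i1, a regulatory subunit of complex IV (420.0 ± 22.0). Complex III ranged over 2.26-fold, from Cyc1 (100.4 per kilobase), which encodes cytochrome c1, to the small subunit Uqcrh (227 per kilobase). Complex V ranged over 10.1-fold, down to Atp5g1 (46.4 ± 6.73), whose annotated transcripts differ in length so that its level is uncertain. Cycs stood at 15.9 ± 1.19, below every subunit of the complexes. Many of these genes have near-identical processed copies elsewhere in the genome, and how reads shared with such copies or with overlapping genes were counted is not given in the sources used here, so that levels of single subunits are uncertain.

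The comparison of CLP with sham asks how sepsis bears on RNAs of the respiratory chain. All 35 liver-form subunits had lower mean levels in CLP than in sham, with log2 fold changes from -0.60 (Cyc1 and Atp5c1) to -0.16 (Uqcrq). The median was -0.41 for complex III, -0.37 for complex IV and -0.42 for complex V, beside 0.02 over the 13190 genes tested. In edgeR's quasi-likelihood test of all 12 mice, with Benjamini-Hochberg adjustment over all genes, 2 of the 35 passed an adjusted p of 0.05: Uqcrc2, a core protein of complex III, and Cox7b, a small subunit of complex IV. Over all genes tested, 1.14% were lower by that rule. At an unadjusted p under 0.05, 32 of the 35 were lower (8 of 9 in complex III, 10 of 11 in complex IV, 14 of 15 in complex V), where 13.1% of all genes were. In 31 of the 35 every CLP mouse lay below every sham mouse (8, 10 and 13 genes), which held for 14.2% of all genes.

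**Figure D1:**
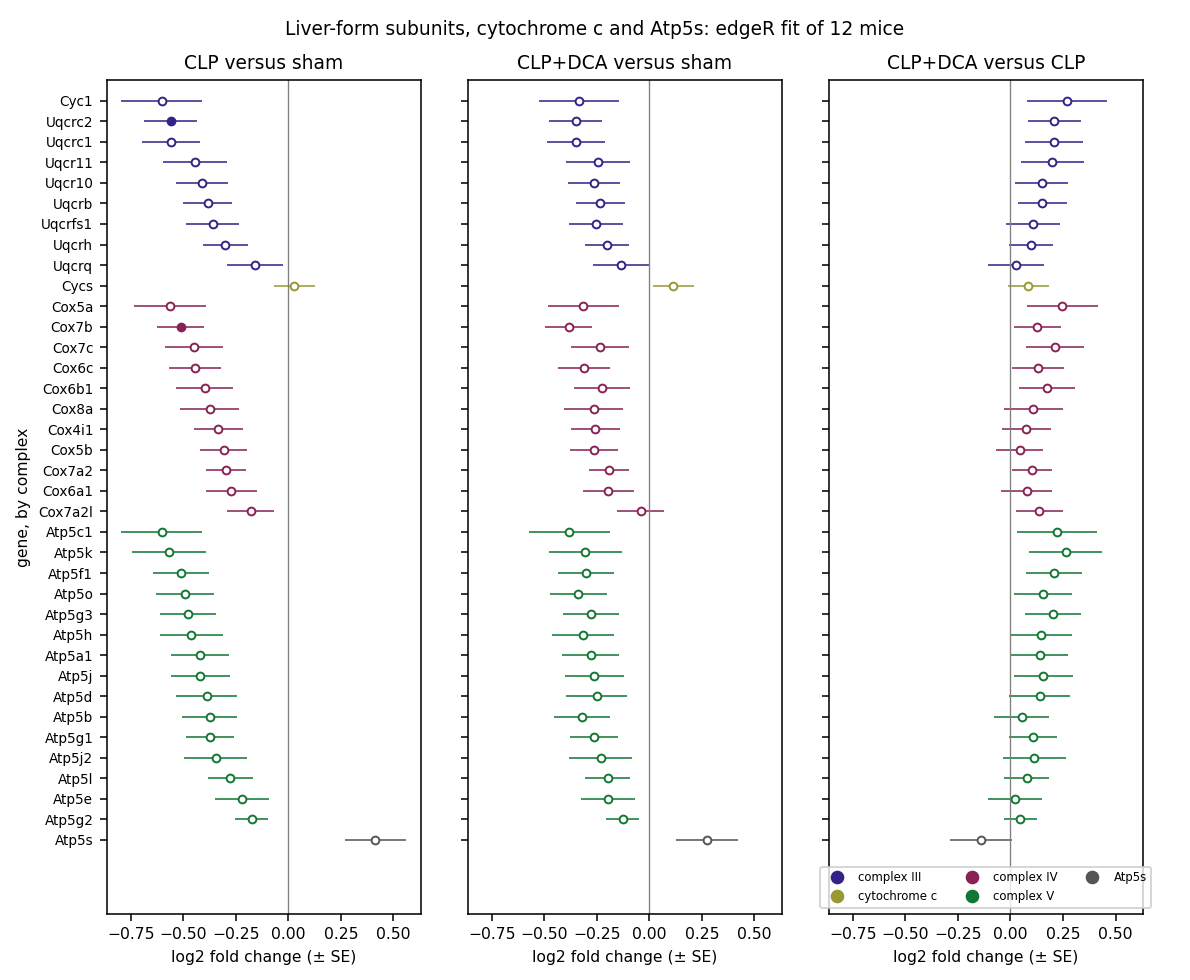
Log2 fold change (x axis, with standard error) of each liver-form subunit, Cycs and Atp5s (y axis, colored by complex) in the 3 contrasts of the edgeR fit of 12 mice. Filled points pass an adjusted p of 0.05, which held for Uqcrc2 and Cox7b in CLP versus sham; all 35 subunits lie left of 0 there, and right of 0 in CLP+DCA versus CLP.

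Of the genes described next, Cyc1, Uqcrfs1, Uqcrq, Cox7a2l and Atp5c1 were singled out after their values were seen. In complex III, Uqcrc2 (chr7:120635189-120659523, plus strand, mm10) stood at 189, 194, 189 and 192 CPM in sham replicates 1 to 4, at 124, 123, 151 and 119.6 CPM in CLP and at 149, 149, 119 and 181 CPM in CLP+DCA. The sham mice lay close together, all CLP mice lay below them, and the highest CLP mouse was the one with muscle RNA. Uqcrc2 fell to 0.678 of its sham level (log2 fold change -0.56 ± 0.13 SE, adjusted p = 0.0461, edgeR). Its partner core protein Uqcrc1 (chr9:108936648-108949641, plus strand) stood at 194, 197, 221 and 192 CPM in sham, 136, 126, 166 and 119 CPM in CLP and 164, 169, 123 and 175 CPM in CLP+DCA. The CLP and sham mice did not overlap, and the difference had an adjusted p of 0.0529 in edgeR (log2 fold change -0.56 ± 0.14).

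Of the catalytic subunits, Cyc1, whose heme hands electrons to cytochrome c, stood at 151, 154, 159 and 147 CPM in sham and 103, 88.2, 131 and 79.2 CPM in CLP, and the Rieske iron-sulfur protein Uqcrfs1 at 180.4, 179, 184 and 188 CPM in sham and 135, 128, 172 and 134 CPM in CLP. Both were lower in every CLP mouse, and the CLP mice spread more widely than the sham mice, with CLP replicate 3 nearest to sham in both. The log2 fold changes were -0.60 ± 0.19 (adjusted p = 0.0819, edgeR) and -0.36 ± 0.13 (adjusted p = 0.101, edgeR). Among the 5 small subunits, Uqcr10 stood at 65.1, 70.7, 80.1 and 68.4 CPM in sham, 51.8, 51.5, 63.7 and 46.5 CPM in CLP and 59.9, 69.8, 49.6 and 57.4 CPM in CLP+DCA, a log2 fold change of -0.41 ± 0.12 (adjusted p = 0.0756, edgeR). Uqcr11, Uqcrb and Uqcrh had values of -0.44, -0.38 and -0.30, and Uqcrq (-0.16 ± 0.13) was the only gene of complex III whose sham and CLP mice overlapped.

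Cycs, the mobile carrier between complexes III and IV, had a log2 fold change near 0, unlike the subunits on either side of it. It stood at 53.9, 48.9, 51.1 and 45.1 CPM in sham, 43.9, 57.1, 52.8 and 49.1 CPM in CLP and 50.5, 49.5, 59.1 and 56.1 CPM in CLP+DCA. The 3 groups overlapped throughout, and CLP+DCA replicate 3, in which most subunits were low, had the highest Cycs level of the 12 mice. The log2 fold change in CLP versus sham was 0.03 ± 0.10 (unadjusted p = 0.778, edgeR) and in CLP+DCA versus sham 0.11 ± 0.10, both outside the range of the 35 subunits. The difference between Cycs and the subunits was itself not tested. The sign of the CLP value turned with library size alone as scaling (-0.15, where the median of all genes also stood at -0.15) and when sham replicate 4 or CLP replicate 2 was left out.

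In complex IV, Cox7b (chrX:106015700-106022450, plus strand) stood at 115, 109, 130.5 and 119 CPM in sham, 78.4, 84.2, 93.6 and 75.9 CPM in CLP and 94.0, 103, 75.5 and 90.5 CPM in CLP+DCA. Every CLP and every CLP+DCA mouse lay below the lowest sham mouse. Cox7b fell to 0.701 of its sham level (log2 fold change -0.51 ± 0.11, adjusted p = 0.0418, edgeR). Cox5a, a subunit on the matrix side, stood at 121, 115, 129 and 122 CPM in sham, 80.8, 71.5, 106 and 71.4 CPM in CLP and 104, 113, 67.4 and 108 CPM in CLP+DCA, with the largest difference of the complex (-0.56 ± 0.17, adjusted p = 0.0756, edgeR). Cox6c stood at 137, 139, 159 and 133 CPM in sham, 98.0, 101, 124 and 95.2 CPM in CLP and 122, 132, 95.6 and 109 CPM in CLP+DCA (-0.44 ± 0.12, adjusted p = 0.0675, edgeR). In both genes CLP did not overlap with sham, though it did with CLP+DCA, and CLP replicate 3 was again the highest CLP mouse.

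The remaining complex IV subunits Cox4i1, Cox5b, Cox6a1, Cox6b1, Cox7a2, Cox7c and Cox8a had log2 fold changes between -0.45 (Cox7c) and -0.27 (Cox6a1), each with separate groups. Cox7a2l, the supercomplex factor, was the exception: it stood at 77.6, 80.5, 82.4 and 74.1 CPM in sham and 70.3, 67.4, 78.8 and 61.3 CPM in CLP, with overlapping groups and a log2 fold change of -0.18 ± 0.11 (unadjusted p = 0.135, edgeR). The overlap rested on CLP replicate 3, the mouse with muscle RNA, as the other CLP mice lay below all sham mice. Ndufa4, a subunit of complex IV whose symbol lies outside the rule, stood at 218, 217, 241 and 214 CPM in sham, 149, 148, 189 and 149 CPM in CLP and 190.1, 215, 154 and 185 CPM in CLP+DCA. Its CLP and sham mice did not overlap, and the log2 fold change between them of -0.49 ± 0.12 had an adjusted p of 0.0561 in edgeR.

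Complex V had no gene past the adjusted threshold, although 14 of its 15 genes were lower at an unadjusted p under 0.05. In the peripheral stalk, which holds the F1 head still, Atp5f1 had the smallest p of the complex. It stood at 241, 244, 260.4 and 249 CPM in sham, 169, 157, 211 and 161 CPM in CLP and 207, 220.3, 157 and 223 CPM in CLP+DCA (CLP versus sham -0.51 ± 0.13, adjusted p = 0.0602, edgeR), and Atp5o at 117, 112, 136 and 122 CPM in sham, 78.7, 82.0, 107 and 79.0 CPM in CLP and 101, 109, 75.4 and 99.6 CPM in CLP+DCA (-0.49 ± 0.14, adjusted p = 0.0673, edgeR). All CLP mice lay below all sham mice in both, and also in the other stalk genes Atp5h (-0.46) and Atp5j (-0.42). In the F1 head, Atp5c1, the γ subunit that turns inside it, stood at 189.8, 194, 202 and 193 CPM in sham and 123, 107, 168 and 114 CPM in CLP (-0.60 ± 0.19, adjusted p = 0.0830, edgeR). The head subunits Atp5a1, Atp5b, Atp5d and Atp5e had smaller values, from -0.42 to -0.22, and Atp5e overlapped between the groups. Of the membrane subunits, Atp5k (-0.57 ± 0.17) and Atp5j2 (-0.35 ± 0.15) did not overlap between the groups and Atp5l (-0.28 ± 0.11) did. In Atp5e and Atp5l the overlap rested on CLP replicate 3 (109.9 and 27.2 CPM), as the other CLP mice lay below all sham mice.

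The c ring is encoded by 3 genes for the same mature protein. Atp5g3, the most abundant, stood at 316, 308, 334 and 316 CPM in sham, 212, 223, 282 and 197 CPM in CLP and 267, 293, 218 and 274 CPM in CLP+DCA (CLP versus sham -0.48 ± 0.13, adjusted p = 0.0660, edgeR). Atp5g1 stood at 113, 115, 150.0 and 116 CPM in sham, 92.0, 98.0, 103 and 87.2 CPM in CLP and 104, 115, 95.2 and 96.4 CPM in CLP+DCA (-0.37 ± 0.11, adjusted p = 0.0764, edgeR). Atp5g2 stood at 39.6, 38.0, 41.3 and 38.9 CPM in sham, 32.4, 37.2, 37.6 and 32.8 CPM in CLP and 34.6, 39.8, 34.1 and 36.1 CPM in CLP+DCA (-0.17 ± 0.08, adjusted p = 0.171, edgeR). CLP and sham mice were separate in all 3, by the narrowest margin in Atp5g2, and none passed the adjusted test. Atp5s, a factor linked to the synthase, stood at 5.80, 4.85, 4.50 and 5.42 CPM in sham, 6.36, 7.37, 5.88 and 7.86 CPM in CLP and 4.82, 6.82, 6.93 and 6.27 CPM in CLP+DCA. It was the one member higher in CLP than in sham at an unadjusted p under 0.05 (0.41 ± 0.15, unadjusted p = 0.0158, adjusted p = 0.101, edgeR), as 15.5% of all genes were. It passed the adjusted threshold in DESeq2 on the 8 mice compared (adjusted p = 0.0441), where 11.8% of all genes were higher. It also passed in edgeR without both mice that stood apart (adjusted p = 0.0300), where 15.9% of all genes were higher.

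**Figure D2:**
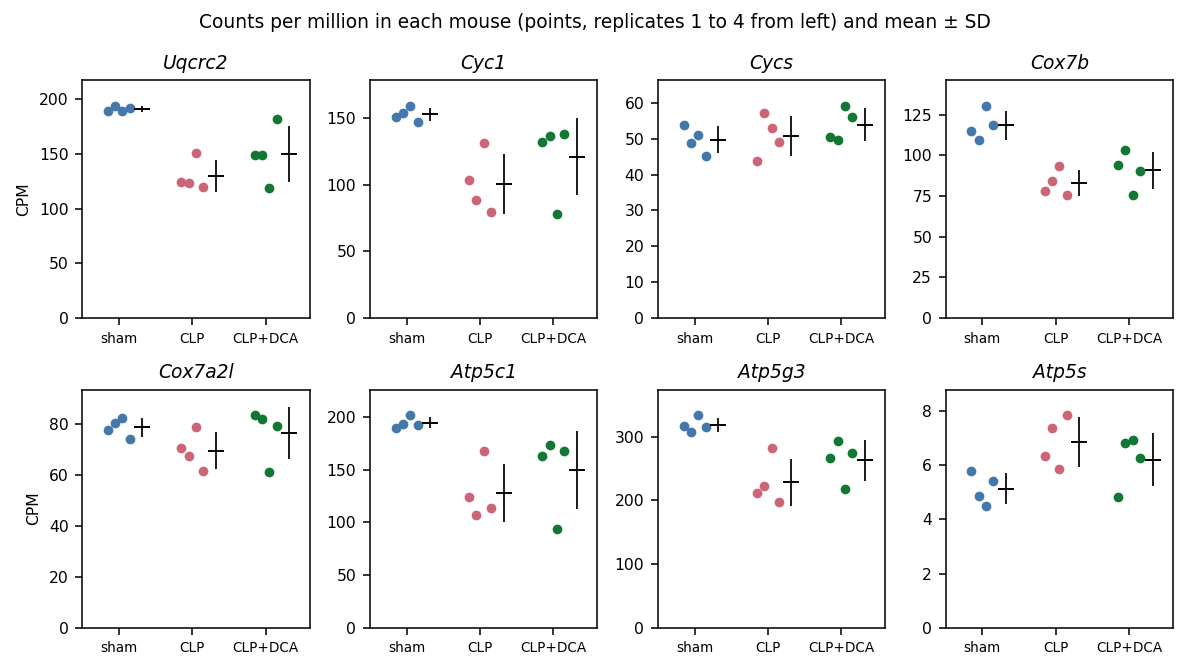
CPM (y axis from 0) of 8 genes in each of the 12 mice, by group, with the mean and SD of each group (n = 4) as bars. All CLP points of Uqcrc2, Cyc1, Cox7b, Atp5c1 and Atp5g3 lie below all sham points, those of Cycs and Cox7a2l overlap with sham, and those of Atp5s lie above.

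Within a mouse the 3 complexes had nearly the same difference from sham. The mean log2 CPM over the genes of a complex, less the sham mean, was taken as a score for each mouse, without a test. Over all 35 genes the scores were -0.04, -0.04, 0.12 and -0.03 in sham replicates 1 to 4, -0.48, -0.45, -0.17 and -0.53 in CLP, and -0.22, -0.07, -0.58 and -0.22 in CLP+DCA. Within a mouse, the scores of the 3 complexes differed by 0.00402 to 0.116, while the CLP+DCA mice ranged from -0.58 to -0.07 among themselves. The widest spreads within a mouse were in CLP replicate 2 (0.116) and CLP+DCA replicate 3 (0.114), where complex IV (-0.37 and -0.51) was less lowered than complex III (-0.49 and -0.60) and complex V (-0.48 and -0.63). In CLP replicates 1 and 3 the complexes lay within 0.0175 and 0.0154 of each other. The group means were -0.43 ± 0.17 (SD, n = 4) for complex III, -0.38 ± 0.16 for complex IV and -0.41 ± 0.17 for complex V in CLP. These SD are between mice and do not measure differences within a mouse. Complex IV less complex III was 0.010, 0.116, 0.015 and 0.043 in CLP replicates 1 to 4. In CLP+DCA it was 0.019, 0.033, 0.087 and -0.045, and these differences were not tested. As a share of all reads, the 35 genes took 0.377% to 0.585% in CLP.

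**Figure D3:**
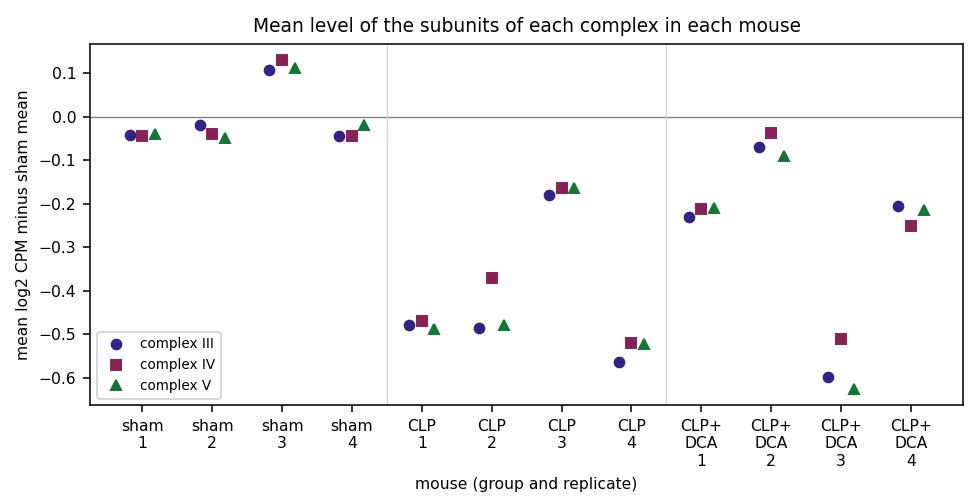
Score of complexes III, IV and V (y axis, mean log2 CPM of 9, 11 and 15 genes less the sham mean) in each of the 12 mice (x axis). The 3 symbols of a mouse lie close together; CLP replicate 3 is the CLP mouse nearest to sham, and CLP+DCA replicate 3 lies with the CLP mice.

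Both mice that stood apart bear on these values. CLP replicate 3, the mouse with muscle RNA, had the highest level of the 4 CLP mice in 33 of the 35 genes, and the part of muscle RNA in those levels was not tested. Its hepatocyte and neutrophil markers (47931 and 37.3 CPM) lay within or at the edge of the range of the other CLP mice (31597 to 47835 and 32.4 to 44.0 CPM). Without it, the medians in CLP versus sham were -0.51 for complex III, -0.43 for complex IV and -0.51 for complex V, and 16 of the 35 genes were lower at an adjusted p of 0.05, where 3.26% of all genes were. As CLP replicate 3 had the highest score of the CLP mice, leaving it out moves CLP further below sham by construction. CLP+DCA replicate 3 is in neither group of this contrast but shares its filter, scaling and estimate of the spread. Without it, 28 of the 35 were lower, where 11.5% of all genes were. Without both, a choice made after the data were seen, 31 of the 35 were lower beside 15.3% of all genes. DESeq2, which the study used, gave on the 8 mice compared 29 of 35 (8 in complex III, 9 in complex IV, 12 in complex V) beside 11.4% of all genes. On the same 8 mice edgeR gave 24 of 35 beside 8.99% of all genes. On counts simulated with the spread of all 12 mice, DESeq2 with 8 mice passed more unchanged genes than its threshold allows. As edgeR with 8 mice was not simulated, this does not separate the tool from the choice of mice. The 2 calls of the fit of all mice were lost when any 1 of the sham mice, CLP replicate 1, 2 or 4, or CLP+DCA replicate 1 or 2 was left out, while all 35 log2 fold changes stayed below 0 in every one of these fits.

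**Figure D4:**
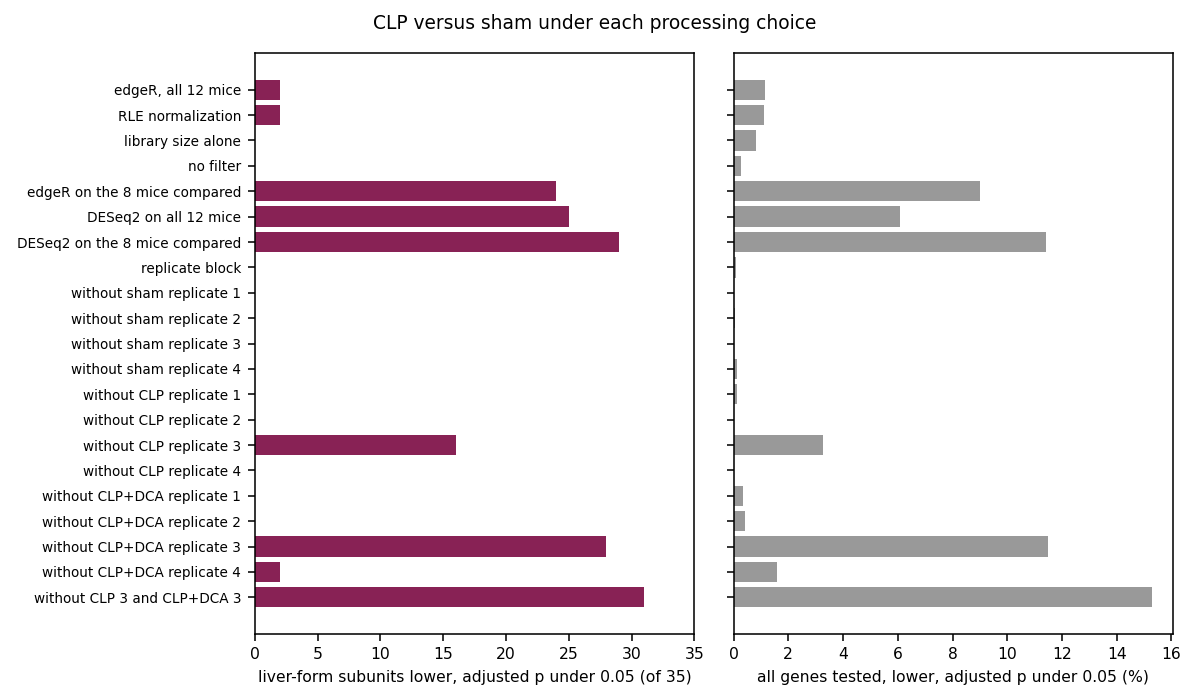
Number of the 35 liver-form subunits lower in CLP than in sham at an adjusted p of 0.05 (left) and percentage of all genes tested that were (right), for each processing choice (y axis); rows without a bar are at or near 0. The number of subunits ranged from 0 to 31 and was highest in the fit without both of the mice that stood apart.

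Mice given DCA after CLP were compared with sham to ask what remained of the difference. All 35 subunits again had mean levels below sham, with medians of -0.25 for complex III, -0.26 for complex IV and -0.28 for complex V. None passed the adjusted threshold in edgeR, which 0.0379% of all genes did in either direction. At an unadjusted p under 0.05, 10 of the 35 were lower (2, 4 and 4 genes of complexes III, IV and V), where 4.85% of all genes were, and 12 of the 35 had groups that did not overlap, where 4.97% of all genes did. The smallest p was that of Cox7b (-0.38 ± 0.11, unadjusted p = 0.00503, adjusted p = 0.266, edgeR), followed by Uqcrc2 (-0.35 ± 0.13, adjusted p = 0.314). CLP+DCA replicate 3 was the lowest CLP+DCA mouse in 33 of the 35 genes and the lowest of all 12 mice in 21. Without it the medians were -0.16, -0.17 and -0.19, 34 of the 35 genes were below 0, and 2 of the 35 were lower at an unadjusted p under 0.05, where 4.07% of all genes were. As it had the lowest score of its group, leaving it out moves CLP+DCA toward sham by construction. With CLP+DCA replicate 2 left out instead, all 35 were below 0 and the medians were -0.35, -0.32 and -0.34.

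The comparison of CLP+DCA with CLP asks whether DCA altered these levels in septic mice. All 35 subunits had higher mean levels in CLP+DCA, with medians of 0.15 for complex III, 0.13 for complex IV and 0.14 for complex V beside 0.01 over all genes. The same CLP mice enter this contrast and the first, so that the opposite signs are not independent. In edgeR 0 of the 35 passed an adjusted p of 0.05 (0.00758% of all genes did, in either direction) and 0 of 35 had an unadjusted p under 0.05 (5.06% of all genes were higher by that rule). Groups that did not overlap were found in 0 of 35 (2.32% of all genes were higher in that way). DESeq2 on the 8 mice of this contrast also gave 0 of the 35 past an adjusted p of 0.05 (0.615% of all genes, in either direction). The smallest p among them were those of Uqcrc2 (0.21 ± 0.13, unadjusted p = 0.127) and Cox7c (0.21 ± 0.14, unadjusted p = 0.146). Cox7c, a small subunit of complex IV, stood at 87.6, 85.2, 101 and 83.1 CPM in sham, 57.5, 62.8, 81.9 and 59.5 CPM in CLP and 77.0, 88.6, 61.9 and 76.0 CPM in CLP+DCA, with the lowest CLP+DCA mouse among the CLP mice and the highest CLP mouse among the CLP+DCA mice.

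These outer mice were CLP+DCA replicate 3 and CLP replicate 3. With CLP replicate 3 left out, 9 of the 35 genes were higher in CLP+DCA at an unadjusted p under 0.05, where 6.6% of all genes were. With CLP+DCA replicate 3 left out, 16 of the 35 were, where 13.7% of all genes were. Neither fit had an adjusted call among the 35, where 0.0603% and 4.64% of all genes had one in either direction. With both left out, chosen after the values were seen and leaving 3 mice against 3, 17 of the 35 were higher at an adjusted p of 0.05 in edgeR, where 8.27% of all genes were, and the medians were 0.33, 0.28 and 0.34. Among the remaining mice all CLP+DCA values lay above all CLP values in 28 of the 35 genes, which held for 19.1% of all genes. CLP+DCA replicate 3 had the lowest score of its group and CLP replicate 3 the highest of its own, so that leaving them out moves the groups apart by construction. With CLP+DCA replicate 2 left out instead, 9 of the 35 log2 fold changes were below 0 and the medians were 0.05, 0.05 and 0.06.

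The muscle isoforms of complex IV are nearly absent from liver, and their values rested on the mouse with muscle RNA. Cox6a2, which replaces Cox6a1 in heart and skeletal muscle, had 1, 1, 2 and 1 reads in sham, 2, 3, 1048 and 1 reads in CLP and 2, 0, 8 and 2 reads in CLP+DCA. Cox8b, the counterpart of Cox8a, had 0, 0, 0 and 1 reads in sham, 0, 1, 410 and 0 in CLP and 0, 0, 2 and 0 in CLP+DCA. Both were thus at 8 reads or fewer in the 11 other mice and at 1048 and 410 reads in CLP replicate 3. There Cox6a2 made up 12.4% of the reads of the Cox6a pair and Cox8b 7.09% of those of the Cox8 pair, against at most 0.142% and 0.0573% in the others. In exact two-sided permutation tests of log2 CPM, CLP and sham differed by 2.33 for Cox6a2 (p = 0.114, n = 4 each) and by 1.91 for Cox8b (p = 0.429), and by 0.43 (p = 0.2) and 0.14 (p = 0.714) without this mouse.

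Cox7a1, the counterpart of Cox7a2, was the one muscle isoform with reads in every mouse: 16, 28, 24 and 37 in sham, 13, 9, 382 and 5 in CLP and 23, 15, 11 and 12 in CLP+DCA. It made up 0.339% to 1.09% of the reads of the Cox7a pair in 11 mice and 10.4% in CLP replicate 3. Its log2 fold change in CLP versus sham was 1.76 ± 0.99 (adjusted p = 0.252, edgeR) with all mice and turned to -1.27 (adjusted p = 0.0590) without CLP replicate 3, where the remaining CLP mice (0.225 to 0.431 CPM) all lay below the sham mice (0.595 to 1.01 CPM). The exact permutation test of that difference gave -1.13 on log2 CPM with p = 0.0286, the smallest that 3 against 4 mice allow. In CLP+DCA versus CLP its value of -2.44 ± 1.04 (unadjusted p = 0.0370, edgeR) likewise turned to 0.59 without that mouse.

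The liver partners of these isoforms had the lower CLP levels of the other subunits. Cox6a1 stood at 189, 209, 229 and 191 CPM in sham, 158, 186, 179 and 156 CPM in CLP and 176, 212, 153 and 174 CPM in CLP+DCA. Cox7a2 stood at 84.9, 87.9, 94.7 and 92.2 CPM in sham, 66.8, 80.3, 80.0 and 66.0 CPM in CLP and 79.2, 86.6, 74.5 and 74.3 CPM in CLP+DCA. Cox8a stood at 145, 149, 164 and 148 CPM in sham, 118, 115, 130.0 and 104 CPM in CLP and 127, 158, 94.5 and 125 CPM in CLP+DCA. For Cox6a1 and Cox7a2, CLP replicate 2 and not replicate 3 was the highest CLP mouse, the only 2 of the 35 genes for which this held, and for Cox8a it was replicate 3. Their log2 fold changes in CLP versus sham were -0.27 ± 0.12, -0.30 ± 0.09 and -0.37 ± 0.14 (adjusted p = 0.166, 0.0834 and 0.113, edgeR). Muscle has isoforms of its own for these 3 subunits and not for the others, and how much of the other subunits' reads in CLP replicate 3 came from muscle was not measured.

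**Figure D5:**
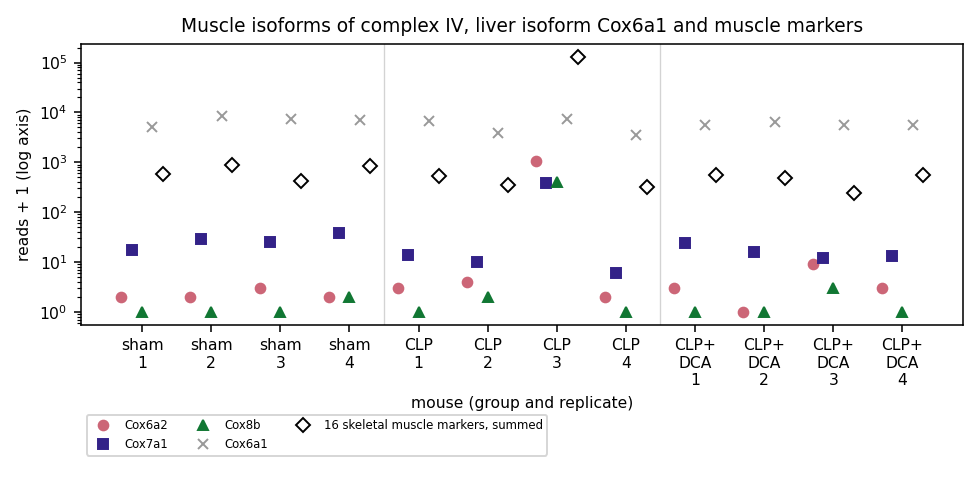
Reads plus 1 (log axis) on Cox6a2, Cox7a1, Cox8b, their comparator Cox6a1 and the sum of 16 skeletal muscle markers in each of the 12 mice (x axis). The 3 muscle isoforms and the markers rise together in CLP replicate 3, at 1048, 382, 410 and 131434 reads, while Cox6a1 there (7384 reads) lies within the range of the others.

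The isoforms of other tissues were at or near 0. Cox4i2, the isoform of lung, had 1, 1, 0 and 3 reads in sham, 2, 0, 9 and 2 in CLP and 1, 2, 1 and 4 in CLP+DCA. Cox6b2, known from testis, had 4, 5, 4 and 4 reads in sham, 11, 0, 12 and 1 in CLP and 11, 5, 3 and 5 in CLP+DCA. Cox7b2 and Cox8c, also known from testis, had no read in any mouse. In exact two-sided permutation tests of CLP against sham, the differences in log2 CPM were 0.47 for Cox4i2 (p = 0.371, n = 4 each) and -0.20 for Cox6b2 (p = 0.8), too small to be told from 0 at these few reads.

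Other parts of the respiratory chain and the factors that build it were examined as lists. Of the complex I subunits 36 were in the table and 35 passed the filter, all 35 lower on average in CLP than in sham, with a median of -0.34 and 23 at an unadjusted p under 0.05. The 4 complex II subunits had a median of -0.46, with 2 at an unadjusted p under 0.05. For these and the following lists, the share of all genes at an unadjusted p under 0.05 was 13.1% lower and 15.5% higher. Of 4 genes of complexes IV and V outside the symbol rule, all were below 0 and 3 had an unadjusted p under 0.05, Ndufa4 and Usmg5 with the smallest. The one that did not was Atpif1 (-0.29 ± 0.21), an inhibitor of the synthase and not a subunit. Usmg5, a small membrane subunit of complex V, stood at 56.6, 54.3, 55.2 and 52.8 CPM in sham, 40.4, 44.8, 50.5 and 42.2 CPM in CLP and 51.2, 56.4, 42.9 and 47.3 CPM in CLP+DCA (CLP versus sham -0.30 ± 0.10, adjusted p = 0.0849, edgeR). None of the genes in these or the following lists passed the adjusted threshold in any contrast.

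The assembly factors were less uniform. Of 22 factors of complex IV that passed the filter (of 25), 18 were below 0 and 4 above, 7 lower and 1 higher at an unadjusted p under 0.05, against 13.1% and 15.5% of all genes. Cox11, which inserts copper, stood at 15.4, 13.2, 13.5 and 14.3 CPM in sham, 11.4, 9.0, 12.2 and 9.34 CPM in CLP and 12.9, 11.7, 11.6 and 13.2 CPM in CLP+DCA (CLP versus sham -0.42 ± 0.11, adjusted p = 0.0580, edgeR), and Surf1, mutated in Leigh syndrome, at 31.0, 32.4, 33.7 and 32.7 CPM in sham, 23.3, 23.6, 26.8 and 22.5 CPM in CLP and 28.4, 30.8, 20.6 and 28.7 CPM in CLP+DCA (-0.43 ± 0.11, adjusted p = 0.0601, edgeR). Both were lower in every CLP mouse. Of the 6 factors of complex III, 5 were below 0 and 1, Uqcc2, had an unadjusted p under 0.05, a share near that of all genes. Uqcc2, needed early in assembly for the translation of cytochrome b, stood at 14.4, 14.6, 18.2 and 15.6 CPM in sham, 10.4, 9.81, 14.1 and 8.44 CPM in CLP and 13.2, 16.1, 8.26 and 12.5 CPM in CLP+DCA (-0.55 ± 0.20, unadjusted p = 0.0175), and its partner Uqcc1 at 30.2, 30.9, 29.6 and 27.7 CPM in sham, 22.7, 19.1, 31.5 and 18.9 CPM in CLP and 29.1, 26.8, 17.8 and 31.4 CPM in CLP+DCA (-0.36 ± 0.19, unadjusted p = 0.0805). Uqcc1 overlapped with sham only in CLP replicate 3. Of the 3 factors of complex V, 2 were below 0, both at an unadjusted p under 0.05. Tmem70 stood at 36.9, 38.6, 40.0 and 37.0 CPM in sham, 31.0, 31.2, 33.9 and 30.0 CPM in CLP and 35.7, 39.3, 30.1 and 37.9 CPM in CLP+DCA (-0.27 ± 0.09) and Atpaf2, a chaperone of the F1 head, at 17.0, 18.8, 19.1 and 18.4 CPM in sham, 15.6, 16.2, 16.7 and 14.5 CPM in CLP and 16.9, 19.1, 16.1 and 15.5 CPM in CLP+DCA (-0.22 ± 0.08). Hccs, which attaches heme to cytochromes c and c1, had a value of -0.08 ± 0.12. In CLP+DCA versus CLP, the medians of the factors of complexes III, IV and V were 0.05, 0.12 and 0.10.

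Among 15 regulators of nuclear respiratory genes, 11 were below 0 and 4 above in CLP versus sham, 7 lower and 2 higher at an unadjusted p under 0.05, against 13.1% and 15.5% of all genes, so that the higher share was near the background. The coactivator Ppargc1b stood at 3.497, 3.94, 3.93 and 3.28 CPM in sham, 2.07, 2.01, 2.10 and 1.57 CPM in CLP and 1.98, 2.65, 1.41 and 3.82 CPM in CLP+DCA (-0.91 ± 0.26, adjusted p = 0.0691, edgeR). All CLP mice lay below all sham mice, and CLP replicate 3 was the highest of the CLP mice by a narrow margin. The related coactivator Pprc1 stood at 10.04, 16.4, 10.3 and 13.5 CPM in sham, 21.6, 24.9, 18.6 and 19.8 CPM in CLP and 18.1, 19.7, 29.4 and 14.5 CPM in CLP+DCA (0.75 ± 0.22, adjusted p = 0.0702, edgeR). Thus the 2 regulators with the smallest p had opposite signs, and neither passed the adjusted test. The others lower at an unadjusted p under 0.05 in edgeR were Ppara (-0.83), Esrra (-0.64), Gabpb1 (-0.32), Gabpa (-0.29), Tfam (-0.22) and Tfb2m (-0.20). The other higher one was Tfb1m (0.57). Of the factors whose motifs were searched, Nrf1 (-0.07), Yy1 (-0.12), Gabpb2 (-0.07) and Esrrg (0.42) did not pass that rule.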

How the data were processed

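Whole-liver RNA was read as paired ends after a poly(A) TruSeq library kit that does not mark strand, with 4 mice in each of the sham, CLP and CLP+DCA groups named by the labels. The deposited table holds whole-number read counts per gene, not normalized by the authors. The submitters' processing notes name STAR 2.5, featureCounts, Subread 1.5.0-p1, DESeq2 and the build mm10. The gene annotation and the handling of reads that match several places are not given in the sources used here. Depth ranged from 24436513 to 44266819 reads, and p-values measure the spread between these mice.

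All 12 libraries were fitted at once in edgeR 4.0.16 (R 4.3.3, limma 3.58.1) by the quasi-likelihood test after TMM scaling, with filterByExpr at a minimum count of 10 (13190 of 25611 genes kept), a prior count of 2 for log2 CPM, and Benjamini-Hochberg adjustment at 0.05 over all genes tested. DESeq2 1.42.0 fitted to the 2 groups compared was an alternative, as the study names that tool without its design, beside other scalings, no filter, a replicate block and leaving out mice. Genes under the filter were tested by exact permutation over mice. CPM values are TMM-scaled. Members and gene lists were chosen with earlier results of these data known. Genes given with values per mouse were those with the 3 smallest p in each complex in CLP versus sham, the 3 with the smallest p in CLP+DCA versus CLP, those outside the complexes, the liver partners of muscle isoforms, the c ring genes and the 2 with the smallest p in each other list, and others are said to be chosen after their values were seen. Transcript lengths came from GENCODE vM21 and upstream windows from RefSeq. The scripts were checked on simulated counts, where DESeq2 with 8 mice passed more unchanged genes than its threshold allows, and edgeR with 8 mice was not simulated. The labels give no batch.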

Additional observations from a re-analysis of the deposited data

Results flagged for a closer look

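In 75 checks of a single mouse against the other 3 of its group (scores and CPM of the genes given by mouse), 11 had a gap to the nearest mouse beyond the 95% critical value of Dixon's test for 4 samples, which chance passes in about 1 of 20 groups. Most of them were CLP replicate 3. Its muscle isoforms stood at 25.3 CPM for Cox6a2 (the next CLP mouse at 0.144), 9.24 CPM for Cox7a1 (0.431) and 9.91 CPM for Cox8b (0.0479), beside 3178 CPM of skeletal muscle markers. The same mouse was set apart in the score of complex V (-0.17, the next at -0.48), in Uqcrc2 (151 CPM, the next at 124) and in Atp5o (107 CPM, the next at 82.0). The part of muscle RNA in these values was not tested.

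Sham replicate 3 was set apart upward in the scores of complex III (0.11, the next at -0.02) and complex IV (0.13, the next at -0.04) and in Atp5g1 (150.0 CPM, the next at 116), and had the highest level of the 12 mice in 30 of the 35 subunits. Cox8b was set apart in sham replicate 4 (0.0274 CPM) and CLP+DCA replicate 3 (0.0542 CPM), which are 1 and 2 reads where the other mice of the group had none.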

How the results depend on the processing

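The direction of the subunits in CLP versus sham held in every setting, with all 35 log2 fold changes below 0, while the number past the adjusted threshold of 0.05 did not hold. Against 2 of 38 members with edgeR on all 12 mice (367 of all genes), 0 were called with library size alone as scaling (209 genes), 0 without the filter (122 genes), 24 with edgeR on the 8 mice compared (2387 genes), 25 with DESeq2 on all 12 mice (1906 genes), 30 with DESeq2 on the 8 mice (3422 genes), 0 to 28 when 1 mouse was left out, and 33 without CLP replicate 3 and CLP+DCA replicate 3 together (4104 genes), a setting added after the data were seen. The range over mice came from CLP replicate 3 (16 without it, 990 genes) and CLP+DCA replicate 3 (28 without it, 3157 genes). RLE scaling gave 2 (356 genes). The adjusted p of Uqcrc2 ranged from 1.41e-07 to 0.128 and that of Cox7b from 1.72e-05 to 0.118 over the alternatives. In CLP+DCA versus sham 1 member was called with DESeq2 on all 12 mice (243 genes, 1.79% of all) and 0 otherwise. In CLP+DCA versus CLP 17 were called without both mice (2227 genes, 16.9% of all) and 0 otherwise.

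With library size alone the median of all genes moved to -0.15 in CLP versus sham and to 0.12 in CLP+DCA versus CLP, and the median of complex IV in CLP versus sham stood at -0.54. Without both mice the medians of complexes III and V in CLP+DCA versus CLP were 0.33 and 0.34. When 1 mouse was left out, medians in CLP versus sham ranged from -0.51 to -0.36 for complex III, -0.43 to -0.32 for complex IV and -0.51 to -0.37 for complex V, and in CLP+DCA versus CLP from 0.05 to 0.24, 0.05 to 0.21 and 0.06 to 0.26. The sign turned for Cycs in CLP versus sham with library size alone (-0.15), without sham replicate 4 (-0.018) and without CLP replicate 2 (-0.033), with a range of -0.033 to 0.091 when 1 mouse was left out, and for Cox7a1 without CLP replicate 3 (-1.27 in CLP versus sham and 0.59 in CLP+DCA versus CLP) with ranges of -1.27 to 2.13 and -2.82 to 0.59 when 1 mouse was left out, and without both mice (-1.28, adjusted p = 0.0170 in edgeR, and 0.77). The cause was not tested, except that leaving out CLP replicate 3 removes the muscle reads.

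With a replicate block, 0 members and 46 genes in all were called in CLP versus sham, and Uqcrc2 and Cox7b had adjusted p of 0.109 and 0.108. In the other contrasts 0 members were called, beside 0 genes in CLP+DCA versus sham and 4 in CLP+DCA versus CLP. The numbers did not pair the mice: in 12 pairs of deviations from the group means the correlations ranged from -0.459 to 0.550, 1 was over 0.1, and 3 of 12 mice correlated best with their own number.

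Fewer than 10 reads in most mice limit Cox6a2, Cox8b, Cox4i2 and Cox6b2, and 4 mice a group limit the exact tests to p = 0.0286 at the smallest.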
